A study of Mus musculus with 8 samples.

Results

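Thbs1, Tnfrsf12a, Lgals3, Amotl2, Cyr61 and Ctgf are genes known from cells under mechanical load, and their transcripts are followed here through the 10 cell types of the mouse iris in 3 pupil states. They were taken from a list of 7 genes, of which 6 are among the 22873 genes of the deposited tables, where Ccn1 and Ccn2 carry the older names Cyr61 and Ctgf. Ankrd1 was on the list and was not analysed here. The genes were listed because of how their transcripts compared between dilated and untreated irises, so that their values for dilation are given as a description, with no test. The choice did not use the constricted libraries, and the genes were tested in constricted against untreated irises. That comparison shares its 3 untreated libraries with the one that chose the genes, so it is not wholly independent of the choice.

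Nuclei were isolated from irises of wild type female albino mice aged 6 to 8 weeks, with a variable amount of ciliary body attached, and 5 or 6 irises were pooled per library. For the 2 dilated libraries, drops with 5% phenylephrine, which activates alpha adrenergic receptors, and 1% cyclopentolate, which blocks muscarinic receptors, were given hourly for 6 hours to mice kept in the dark. For the 3 constricted libraries, 5% pilocarpine, a muscarinic agonist, was given on the same schedule to mice kept in the light, and in both groups the eyes were taken 30 minutes after the last drop. The 3 untreated libraries came from mice that received no drops. Drug and lighting changed together, so their parts cannot be told apart, and the drops reach other tissues besides the muscles. The irises were collected in 5 batches and the libraries were sequenced in 2 runs, and the sources used here do not say which library belongs to which.

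As background, the iris is pulled open by the dilator muscle, a sheet of myoepithelium that lies against the iris pigment epithelium (iris PE), and closed by the sphincter muscle. Between them and the anterior chamber lies the stroma, which folds and unfolds with every pupil movement. Cells under load activate YAP and TAZ, cofactors of the TEAD transcription factors that Hippo pathway kinases otherwise keep out of the nucleus, and MRTF, a cofactor of serum response factor (SRF) that is released when actin polymerizes. Cyr61, Ctgf and Amotl2 are classical targets of YAP and TAZ, and Amotl2 codes for an angiomotin that holds YAP back in turn. Thbs1 codes for thrombospondin 1, a secreted matrix glycoprotein that binds CD47 and integrins and activates TGF-beta. Tnfrsf12a codes for Fn14, the receptor of the cytokine TWEAK, and Lgals3 for galectin 3, a lectin that binds beta-galactosides. Cyr61 and Ctgf code for matricellular proteins of the CCN family that bind integrins.

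In the mm10 assembly (GENCODE vM21), Thbs1 lies at chr2:118111876-118127133 on the plus strand, Cyr61 at chr3:145646976-145649981 on the minus strand, Amotl2 at chr9:102716672-102733418 on the plus strand, Ctgf at chr10:24595442-24598683 on the plus strand, Lgals3 at chr14:47367751-47386160 on the plus strand and Tnfrsf12a at chr17:23675445-23677468 on the minus strand. The 250 bases before the start were read for the 4 genes that the RefSeq promoter table (GRCm38.p6) holds, Cyr61, Amotl2, Lgals3 and Tnfrsf12a. The start is the RefSeq one, which for Amotl2 and Lgals3 lies inside the gene span given above, so bases before that span were not read. Those of Cyr61 (chr3:145649986-145650235, minus strand) and Amotl2 (chr9:102717554-102717803, plus strand) are shown because both held the core of the TEAD binding motif, in capitals, and their transcripts went opposite ways in dilator muscle. Those of Tnfrsf12a (chr17:23677450-23677699, minus strand) and Lgals3 (chr14:47373610-47373859, plus strand) held no match. The dilated means of Tnfrsf12a, Lgals3 and Cyr61 were highest in dilator muscle, though the Cyr61 libraries overlapped those of stroma 2. A part of the core in these levels was not tested.
Cyr61: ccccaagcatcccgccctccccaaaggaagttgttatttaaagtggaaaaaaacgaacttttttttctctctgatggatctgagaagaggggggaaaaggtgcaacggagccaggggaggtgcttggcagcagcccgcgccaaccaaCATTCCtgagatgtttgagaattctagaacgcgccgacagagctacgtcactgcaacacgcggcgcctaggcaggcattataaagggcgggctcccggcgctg
Amotl2: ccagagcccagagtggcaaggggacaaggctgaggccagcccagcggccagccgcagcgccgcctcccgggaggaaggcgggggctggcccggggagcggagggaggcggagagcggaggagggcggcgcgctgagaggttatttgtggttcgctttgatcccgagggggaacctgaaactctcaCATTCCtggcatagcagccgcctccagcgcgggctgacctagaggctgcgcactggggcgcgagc
Tnfrsf12a: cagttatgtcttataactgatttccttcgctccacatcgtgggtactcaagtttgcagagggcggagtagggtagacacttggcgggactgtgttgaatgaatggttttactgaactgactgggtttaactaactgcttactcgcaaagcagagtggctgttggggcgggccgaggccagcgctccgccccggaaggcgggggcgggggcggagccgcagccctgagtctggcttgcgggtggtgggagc
Lgals3: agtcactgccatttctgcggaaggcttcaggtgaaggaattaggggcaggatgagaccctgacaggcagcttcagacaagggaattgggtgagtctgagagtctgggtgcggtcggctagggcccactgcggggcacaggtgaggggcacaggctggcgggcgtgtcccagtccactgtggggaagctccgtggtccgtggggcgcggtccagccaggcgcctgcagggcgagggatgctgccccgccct
The letters searched were GGAATG or its complement CATTCC for TEAD, TGANTCA for AP-1 and the CArG box of SRF, each on both strands, and none of these motifs overlaps another. Cyr61 had CATTCC with its first base 103 bases before the start and Amotl2 had it 65 bases before. None of the 4 windows held the AP-1 letters or a CArG box. Of the 32851 promoters of this length in the table, 12.6% held the TEAD core, 6.75% the AP-1 letters and 1.47% a CArG box, so that a match to the TEAD core is common and is given as a description only.

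The 8 libraries held 34357 nuclei, 1274 to 7321 per library, with 5189437 to 25136427 unique molecular identifiers (UMIs) each. Libraries are the replicates, and p-values measure the spread between these pools. Of the markers chosen for each cell type, all 5 of stroma 2 (such as Pdgfra and Col1a1), all 4 of stroma 1 and 4 of 6 of dilator muscle had their highest level in their own type, against 1 of 3 for iris PE. Untreated 1 and dilated 1 shared 63 cell barcodes of 16 bases, 4.26% of the 1479 nuclei of untreated 1, against at most 18 in each other pair of libraries. The cell type was the same in 59 of the 63, and the median correlation of log counts was 0.551 between nuclei with the shared barcode and 0.269 with another one. Constricted 1 and untreated 1 shared 14, with the same cell type in 13 and medians of 0.536 and 0.327. Constricted 1 and dilated 1 shared 18, with the same cell type in 11 and medians of 0.432 and 0.247. Leaving out the 400 nuclei whose barcode occurs in more than 1 library moved the members' log2 fold changes by at most 0.497, and by at most 0.111 over the 42 in dilator muscle, stroma 1, stroma 2 and iris PE. Amotl2 in sphincter 2 no longer passed the filter on low counts then and was not compared. Libraries with neighbouring numbers in the labels (2 to 4, or 15 to 18) deviated from their condition means together, with r from 0.13 to 0.45 over 16 pairs in dilator muscle and stroma 2, against −0.45 to 0.087 over the 26 other pairs, and each condition had libraries in both series. The 2 dilated libraries deviate from their mean by equal and opposite amounts, so many negative values only mirror positive ones. The contrast between the pairs is thus partly built in and is a description. With the series as a block, the members' dilation values in dilator muscle, stroma 1, stroma 2 and iris PE kept their direction, and the one that moved most was Tnfrsf12a in stroma 1, from 4.78 to 5.25. In stroma 2, untreated 1 also stood apart from the other untreated libraries in Cyr61, Ctgf and Amotl2. In dilator muscle it did so in Thbs1, Ctgf and Cyr61, at 7.09, 8.08 and 3.22 times the mean of the others. Values with and without it are given where it matters.

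Levels are counts per 1000000 UMIs (CPM) of the nuclei of 1 cell type in 1 library, with the UMIs summed over the genes read here and not taken from the deposited totals. They are nuclear RNA, and reads of introns were counted too, so that a level of 1 gene is compared between samples and cell types but not with the level of another gene. Log2 fold changes come from edgeR and carry their standard error (SE).

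In dilated irises Thbs1 had its highest mean level in stroma 2, and there the dilated libraries were far above the others. In stroma 2 Thbs1 measured 167 and 118 CPM in the dilated libraries (618 and 202 UMIs), 9.67, 7.19 and 3.96 CPM in the untreated ones, and 20.2, 11.8 and 8.53 CPM in the constricted ones. The lowest dilated library was thus above every other library, whereas constricted and untreated libraries overlapped. The log2 fold change, dilated against untreated, was 4.55 (SE 0.33) and ranged from 4.19 to 4.74 when each library was left out in turn. In dilator muscle Thbs1 was close to absent without dilation, with 3.12, 0.563 and 0.316 CPM in untreated and 2.13, 4.43 and 0.948 CPM in constricted libraries, and measured 31.9 and 46.5 CPM in the dilated ones. Here the log2 fold change was 5.80 (SE 0.54), or 6.54 without untreated 1, and the untreated libraries held 11 UMIs of the gene in all.

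Stroma 1 carried Thbs1 at 1.79, 12.4 and 5.55 CPM in untreated, 13.7, 10.3 and 21.2 CPM in constricted and 33.4 and 21.7 CPM in dilated libraries. The log2 fold change of dilated against untreated was 1.87 (SE 0.51), or 2.62 without untreated 2. The 3 conditions lay closer together here than in stroma 2. Leukocytes had no UMI of Thbs1 in any untreated library, which allows up to 6.58 CPM over the group, and 124 and 52.8 CPM in the dilated ones, from 102 nuclei in all. The gene did not pass the filter on low counts in leukocytes or in iris PE, where dilated libraries measured 6.41 and 2.40 CPM. Endothelial cells had 1 UMI of Thbs1 in dilated 1 and 0 in every other library.

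**Figure D1:**
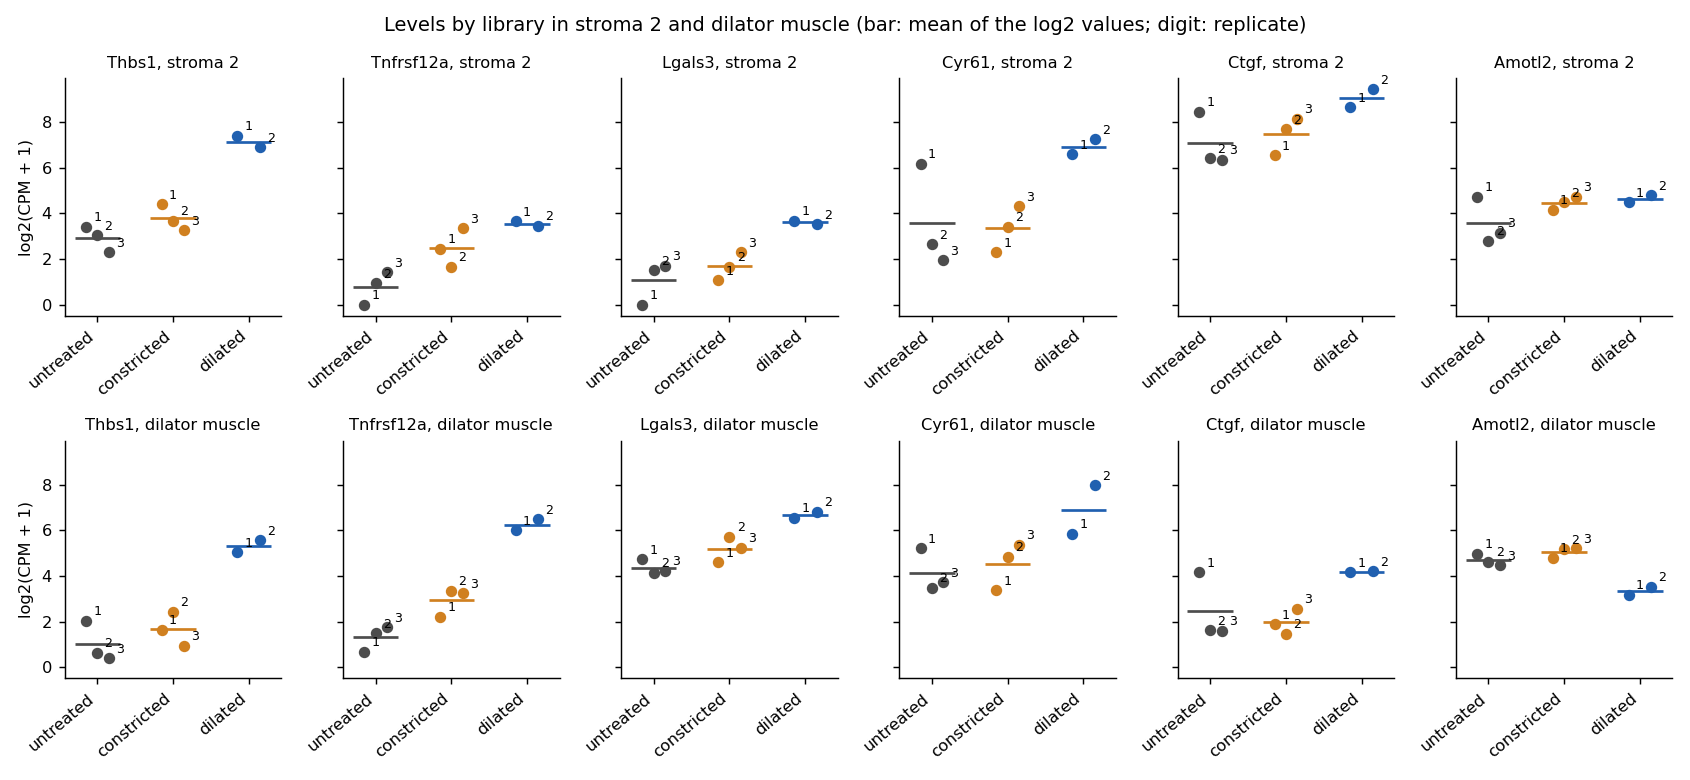
Levels of the 6 genes per library in stroma 2 (top) and dilator muscle (bottom), as log2(CPM + 1); each point is 1 library with its replicate number, by condition, and bars are means of the log2 values. The dilated libraries stand above the others for Thbs1 in stroma 2 (118 and 167 CPM) and for Tnfrsf12a in dilator muscle (62.7 and 88.0 CPM), and below the untreated ones for Amotl2 in dilator muscle (8.10 and 10.6 CPM).

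Tnfrsf12a was highest in dilator muscle, not in the stroma, when the pupil was dilated. In dilator muscle it measured 62.7 and 88.0 CPM in the dilated libraries, 0.623, 1.83 and 2.37 CPM in the untreated ones (1, 13 and 15 UMIs), and 3.68, 9.31 and 8.53 CPM in the constricted ones. The 3 conditions did not overlap, with constricted between the others. The log2 fold change of dilated against untreated was 5.47 (SE 0.39) and ranged from 5.12 to 5.76 when each library was left out. In stroma 1, dilated libraries had 18.1 and 36.7 CPM against 0, 1.46 and 0.616 CPM in untreated ones, a log2 fold change of 4.78 (SE 0.89), and in iris PE 21.5 and 25.0 CPM against 5.85, 1.99 and 1.42 CPM, a log2 fold change of 3.38 (SE 0.44). Stroma 2 was the lowest of these 4 types with dilation, at 11.6 and 9.93 CPM against 0, 0.938 and 1.70 CPM, a log2 fold change of 3.19 (SE 0.61). Fn14 transcripts thus had another place than Thbs1, whose dilated levels were highest in stroma 2.

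Lgals3 was also highest in dilator muscle with dilation, but it was well detected there without it. Dilator muscle had 92.5 and 112 CPM in dilated, 25.6, 16.6 and 17.7 CPM in untreated and 23.4, 51.4 and 36.7 CPM in constricted libraries. Both dilated libraries were above all others, and the log2 fold change was 2.61 (SE 0.28). In stroma 1 the gene measured 39.0 and 45.0 CPM with dilation against 5.38, 2.93 and 6.16 CPM, a log2 fold change of 3.1 (SE 0.48). Stroma 2 had 11.9 and 10.5 CPM against 0, 1.88 and 2.26 CPM, with a log2 fold change of 2.64 (SE 0.55). Iris PE differed little, with 14 and 14.7 CPM against 10.0, 11.7 and 14.6 CPM, a log2 fold change of 0.22 (SE 0.28). In ciliary body cells (CB) galectin 3 transcripts were no higher with dilation, at 17.9 and 13.8 CPM against 14.4, 35.6 and 43.9 CPM.

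The CCN genes differed in where they were found. Ctgf was concentrated in stroma 2 in every condition, with 396 and 688 CPM in dilated, 346, 84.4 and 79.8 CPM in untreated and 92.5, 203 and 279 CPM in constricted libraries. Dilated libraries lay above all others, but untreated 1 came close to them, at 4.21 times the mean of the other untreated libraries. The log2 fold change was 1.83 (SE 0.56) with untreated 1 and 2.75 without it. In dilator muscle Ctgf was low throughout, with 16.9 and 17.6 CPM in dilated and 16.8, 2.11 and 2.06 CPM in untreated libraries, and its log2 fold change of 2.04 (SE 0.64) was 3.18 without untreated 1.

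Cyr61 was high with dilation in both stroma 2 and dilator muscle. In stroma 2 it measured 95.4 and 151 CPM in dilated, 71.3, 5.32 and 2.83 CPM in untreated and 3.92, 9.69 and 19.0 CPM in constricted libraries. Untreated 1 was 17.5 times the mean of the other untreated libraries, and the log2 fold change of 2.91 (SE 0.86) was 4.93 without it. In stroma 2 of untreated 1, Egr1, an immediate early gene, stood at 56.8 CPM against 10.3 and 12.7 CPM in the other untreated libraries, and Jun at 43.5 CPM against 8.44 and 11.3 CPM. The whole list of 12 immediate early genes differed less there, with a sum of 227 CPM against 144 and 157 CPM. A link to Cyr61 was not tested. In dilator muscle Cyr61 measured 56.9 and 248 CPM in dilated and 36.2, 10.3 and 12.2 CPM in untreated libraries. The log2 fold change was 3.45 (SE 0.67), 1.90 without dilated 2 and 3.96 without untreated 1. The sum of 12 immediate early genes moved the same way, with 683 CPM in dilated 1, 2930 CPM in dilated 2 and 179 to 213 CPM in untreated dilator muscle, and its part in the result was not tested. In iris PE the dilated libraries, at 32.6 and 31.8 CPM, lay within the range of the untreated ones, 15.5 to 59.3 CPM.

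The dilated mean of Amotl2 was below the untreated one in 6 of 10 cell types, and in 3 of these, dilator muscle, iris PE and stroma 1, the libraries did not overlap. In dilator muscle it measured 8.10 and 10.6 CPM in dilated against 30.5, 23.6 and 21.0 CPM in untreated libraries, and in iris PE 19.4 and 26.7 CPM against 44.3, 40.6 and 45.5 CPM. The log2 fold changes were −1.22 (SE 0.25) and −0.90 (SE 0.25), and in stroma 1, with 16.7 and 20.0 CPM against 37.7, 29.3 and 26.5 CPM, −0.71 (SE 0.35). Of the 7 types where the gene was tested, stroma 2 alone had a higher value with dilation, with 21.3 and 26.9 CPM in dilated and 25.4, 5.94 and 7.92 CPM in untreated libraries. These overlapped through untreated 1, and the log2 fold change of 1.25 (SE 0.44) was 1.78 without that library. In ciliary body cells and ciliary body epithelium (CBE) the log2 fold changes of Amotl2 were −1.07 (SE 0.49) and −0.92 (SE 0.39), with overlapping libraries. The dilated means were also above the untreated ones in sphincter 1 (15.6 against 7.23 CPM), endothelial cells (31.2 against 20.5 CPM) and leukocytes (6.60 against 1.26 CPM), from 13, 5 and 1 dilated UMIs, where the gene was not tested.

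**Figure D2:**
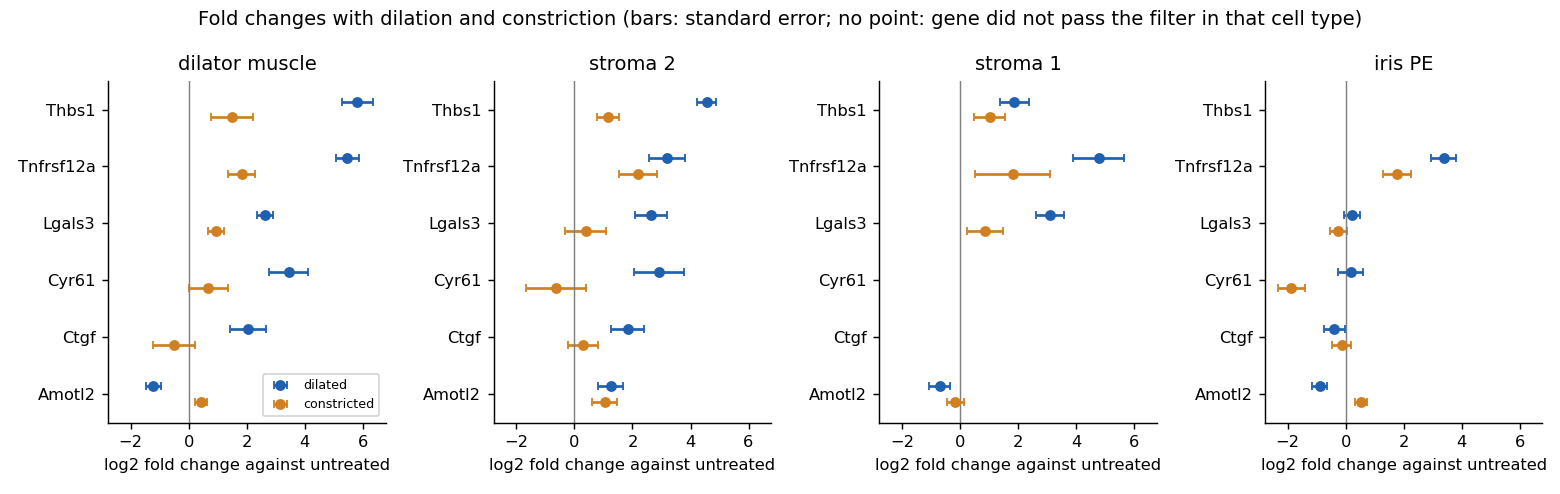
Log2 fold changes of the 6 genes with their standard errors (bars), dilated and constricted against untreated, in dilator muscle, stroma 2, stroma 1 and iris PE; a gene that did not pass the filter on low counts has no point. Dilation values run from 5.80 for Thbs1 to −1.22 for Amotl2 in dilator muscle, and the constriction values of Tnfrsf12a lie at 1.82 in dilator muscle and 1.77 in iris PE.

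Counted over libraries, 5 of the 6 genes in dilator muscle had every dilated library above every untreated one and 1 had them below, where 14.5% and 33.9% of all 15395 genes tested lay above and below. In stroma 2 the count was 5 of 6 above, against 12.2% of 12788 genes. In stroma 1, 3 of the 4 genes that passed the filter lay above and 1 below (all genes 15.3% and 16.4%), and in iris PE 1 of 5 lay above and 1 below (all genes 10.9% and 15.5%). The genes were picked on this contrast, so nothing is read from these shares. Of the 6 genes, 6 passed the filter on low counts in dilator muscle and stroma 2, 5 in iris PE, 4 in stroma 1, 3 each in CB and CBE, 1 in sphincter 2 and none in sphincter 1, endothelial cells and leukocytes.

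Ordered by cell type, dilated Thbs1 averaged 142 ± 34.3 CPM (SD, n = 2) in stroma 2, 88.4 ± 50.3 in leukocytes, 39.2 ± 10.3 in dilator muscle and 27.5 ± 8.29 in stroma 1, with every other type below 10. Stroma 2 and leukocytes overlapped, as did dilator muscle and stroma 1. In untreated irises stroma 2 at 6.94 ± 2.86 CPM and stroma 1 at 6.59 ± 5.40 CPM (n = 3) could not be told apart. Dilated Tnfrsf12a averaged 75.3 ± 17.9 CPM in dilator muscle, above all others without overlap, then 27.4 ± 13.1 in stroma 1 and 23.2 ± 2.48 in iris PE, which overlapped. Dilated Lgals3 averaged 102 ± 13.5 CPM in dilator muscle, 42.0 ± 4.28 in stroma 1 and 27.5 ± 0.510 in CBE. Cyr61, at 153 ± 135 CPM in dilator muscle and 123 ± 39.5 in stroma 2, had no clear first place. Ctgf averaged 542 ± 206 CPM in dilated stroma 2, with leukocytes next at 94.9 ± 59.6. Untreated Amotl2 ran from 43.5 ± 2.56 CPM in iris PE over 38.5 ± 9.09 in CBE, 31.1 ± 5.81 in stroma 1, 28.6 ± 12.4 in CB and 25.1 ± 4.91 in dilator muscle to 20.5 ± 2.21 in endothelial cells, each overlapping the next, and the other types lay between 13.1 CPM in stroma 2 and 1.26 CPM in leukocytes. With dilation the order was another, with 31.2 CPM in endothelial cells, 24.1 ± 3.94 in stroma 2, 23.1 ± 5.17 in iris PE and 22.9 ± 9.37 in CBE, which overlapped. In constricted irises Thbs1 averaged 15.1 CPM in stroma 1, 14.3 in leukocytes and 13.5 in stroma 2. By their dilated means, Thbs1 and Ctgf were highest in stroma 2, and Tnfrsf12a, Lgals3 and Cyr61 in dilator muscle.

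**Figure D3:**
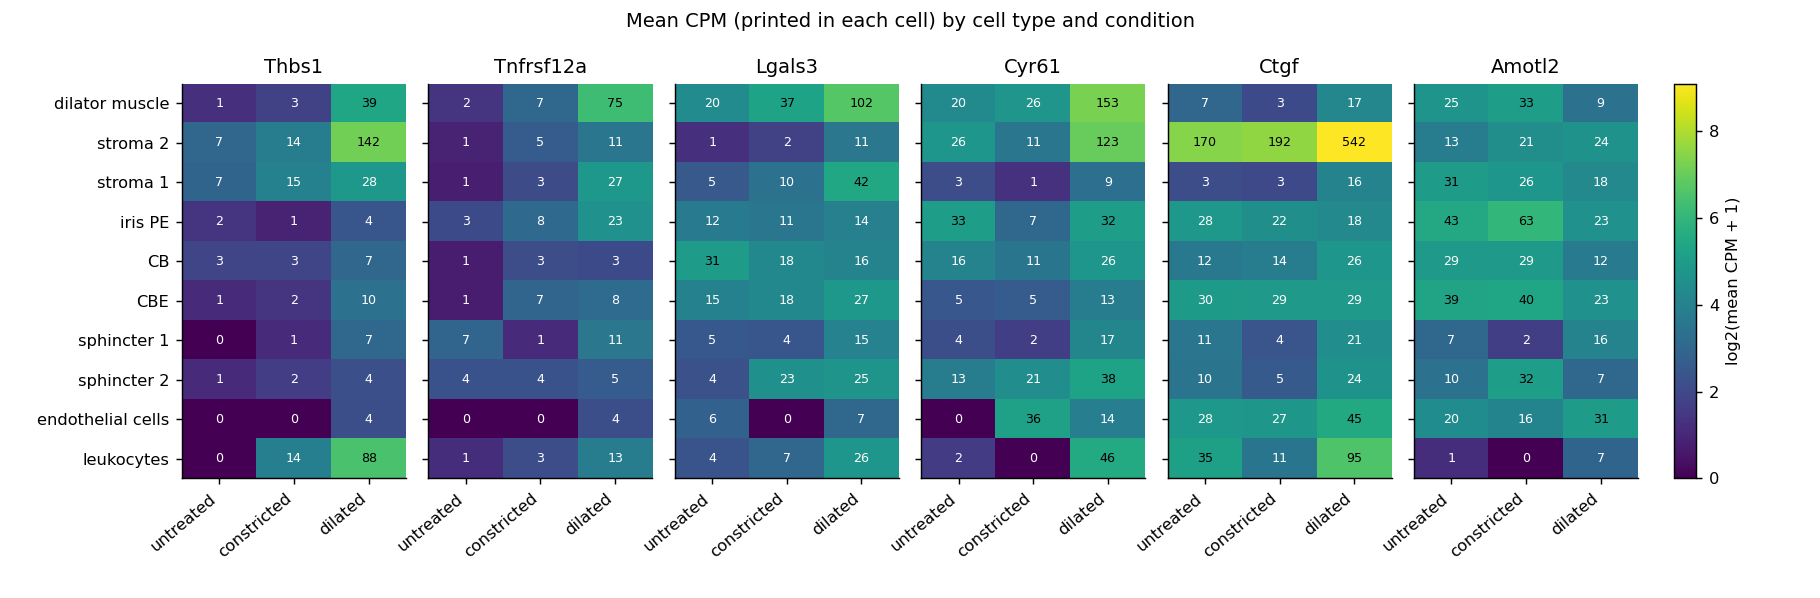
Mean level of each gene in the 10 cell types and 3 conditions, in CPM. Stroma 2 leads for Thbs1 (142 CPM) and Ctgf (542 CPM) with dilation, and dilator muscle for Tnfrsf12a (75.3 CPM) and Lgals3 (102 CPM).

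Likeness of pattern was measured by Pearson's r of log2 levels over 24 points, 3 conditions in the 8 cell types other than endothelial cells and leukocytes, among 11165 genes. The points share libraries and cell types, so r is a description. Thbs1 was most like Errfi1, an inhibitor of EGF receptor signalling (r = 0.90), Erg (0.81), an endothelial transcription factor, and Osmr (0.81), the oncostatin M receptor. Tnfrsf12a was most like Dbi and Cd68 (both 0.82) and Dio2 (0.78), Lgals3 like Cycs (0.81), Dnajb9 (0.78) and Bmp2k (0.77), and Cyr61 like Gem (0.85), Rpl41 (0.82) and Vmp1 (0.81). Ctgf was most like Flt1 and Smoc1 (both 0.94) and Ogfrl1 (0.93), and Amotl2 like Gm15952 and Zfp982 (both 0.81) and Efhc2 (0.79). Among the 6 genes themselves, r was 0.64 for Tnfrsf12a with Lgals3, 0.60 for Thbs1 with Cyr61, 0.59 for Thbs1 with Ctgf and 0.52 for Thbs1 with Tnfrsf12a. Lgals3 and Ctgf, at −0.26, ran apart, and Amotl2 had r between −0.17 and 0.09 with the other 5.

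Within a cell type the transcripts were found in a minority of nuclei. Thbs1 had a UMI in 265 of 2054 dilated stroma 2 nuclei (12.9%), in 1.35% of untreated and in 3.18% of constricted ones. With every nucleus thinned to 1000 UMIs, which left out 42 dilated and 119 untreated nuclei, the shares were 6.81% (exact 95% interval 5.75 to 8.0) with dilation and 0.753% without. Median depth was similar, at 2521.5 and 2425 UMIs. Dilated iris PE, where the gene did not pass the filter although the nuclei were deeper, at a median of 3083.5 UMIs, had 1.57% unthinned and 0.555% thinned, so that the share in dilated stroma 2 was above this background. The intervals cover counting error only. Among dilated stroma 2 nuclei 3.55% held 3 or more UMIs of Thbs1, and the highest held 39.

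In dilator muscle Tnfrsf12a had a UMI in 19.0% of dilated, 2.13% of constricted and 0.597% of untreated nuclei, or 6.33%, 0.534% and 0.115% after thinning, while dilated stroma 2 had 2.63% and 1.04%. Lgals3 went from 5.67% of untreated to 26.7% of dilated dilator nuclei (1.57% and 7.70% thinned), and Cyr61 from 3.65% to 20.5% (1.18% and 9.30% thinned). Ctgf had a UMI in 42.3% of dilated stroma 2 nuclei against 15.5% of untreated ones (27.0% and 8.56% thinned). Amotl2 in iris PE was found in 6.17% of dilated, 12.4% of untreated and 16.6% of constricted nuclei. In each of these genes and cell types the shares, thinned or not, put the dilated nuclei on the same side of the untreated ones as the levels did.

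**Figure D4:**
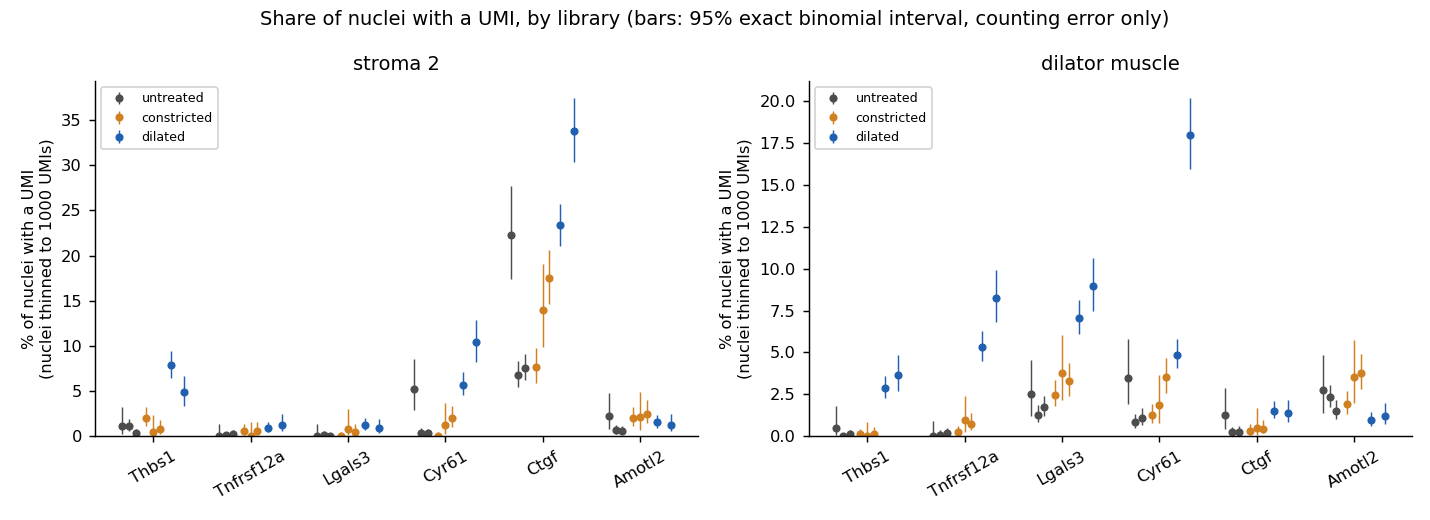
Percent of nuclei in which a gene was found after thinning each nucleus to 1000 UMIs, in stroma 2 and dilator muscle; each point is 1 library, by condition, with its exact 95% binomial interval that covers counting error only. Over the libraries of a condition together, Ctgf reaches 27.0% in dilated and 8.56% in untreated stroma 2, and Thbs1 6.81% and 0.753%.

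For some pairs of genes, nuclei with one transcript had the other more often than nuclei without it, and for other pairs they did not. In stroma 2 of dilated 1, thinned to equal depth, Ctgf was found in 43 of 103 nuclei with Thbs1 (41.7%) and in 21.8% of those without, and in dilated 2 in 23 of 34 (67.6%) and in 32.1%. Cyr61 followed the same pattern there, with 17.5% against 4.72% in dilated 1 and 26.5% against 9.60% in dilated 2. In dilator muscle, Cyr61 was found in 10 of 74 nuclei with Thbs1 against 4.62% without in dilated 1, and in 26 of 48 against 16.6% in dilated 2. Lgals3 and Cyr61 did not go together in dilator nuclei, where Cyr61 was found in 4.97% of nuclei with Lgals3 and 4.87% of those without in dilated 1, and in 17.1% and 18.1% in dilated 2. In stroma 2, Ctgf was found in 1 of 16 nuclei with Lgals3 against 23.6% without in dilated 1, and in 1 of 6 against 34.0% in dilated 2. Tnfrsf12a was found there in 1 of 103 nuclei with Thbs1 against 0.911% without in dilated 1, and in 3 of 34 against 0.900% in dilated 2. Nuclei of 1 library share their source, so these shares are a description.

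In constricted against untreated irises no gene of the 6 passed the threshold. Among 28 tests, 1 for each gene and cell type that passed the filter, edgeR called none at an adjusted p below 0.05 and an absolute log2 fold change above 0.6, and DESeq2 called 1. The adjusted p ran from 0.629 to 1.00, and 9 of the 28 had an unadjusted p below 0.05. These were 2 of 6 genes in dilator muscle (4.09% of all genes tested), 3 of 6 in stroma 2 (5.29%), 3 of 5 in iris PE (4.37%) and the 1 gene tested in sphincter 2 (5.93%). The untreated libraries served in the choice of the genes too, so nothing is read from these shares. On the untreated and constricted libraries alone, 19 of the 28 passed the filter on low counts, and edgeR fitted to these 2 conditions called 0 of them. Of the 9 with an unadjusted p below 0.05, 7 were among these 19, whereas Amotl2 in sphincter 2 and Tnfrsf12a in stroma 2 were not. The tests that did not pass on these 2 conditions had few UMIs. For Tnfrsf12a in stroma 1, with 3 untreated and 5 constricted UMIs, a difference was hardly detectable at this depth. In this fit constriction changed few genes of any kind. The counts depend on the fit, as the 2 genes called in stroma 2 were 24 with DESeq2 and 0 without untreated 2 or untreated 3. The genes called made up 0.0065% of those tested in dilator muscle, 0.0156% in stroma 2, 0.00708% in iris PE, 0.0897% in sphincter 2, and 0% in stroma 1, CB and CBE.

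Tnfrsf12a came nearest. In dilator muscle all constricted libraries, at 3.68, 9.31 and 8.53 CPM, lay above all untreated ones, at 0.623, 1.83 and 2.37 CPM, as 4.52% of genes tested did. The log2 fold change was 1.82 (SE 0.45), with an unadjusted p of 0.00159 and an adjusted p of 0.908 by edgeR. DESeq2 gave 1.88 with an adjusted p of 0.0246, and edgeR with the replicate number as a block gave 2.00 with 0.0407, so that the call depends on the tool and the model. In stroma 2 constricted libraries measured 4.49, 2.15 and 9.18 CPM against 0, 0.938 and 1.70 CPM, again without overlap (5.29% of genes tested), from 8, 2 and 14 against 0, 3 and 6 UMIs, and edgeR's adjusted p was 0.629. On untreated and constricted libraries alone the gene did not pass the filter there. It entered this test only through the fit that holds the dilated libraries, so nothing is read from it. In iris PE the log2 fold change was 1.77 (SE 0.48, adjusted p = 0.807) and the libraries overlapped.

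Thbs1 in stroma 2 had a log2 fold change of 1.16 (SE 0.38, adjusted p = 0.714) with constriction, and Lgals3 in dilator muscle 0.95 (SE 0.27, adjusted p = 0.967). Neither passed the test, and the libraries overlapped. Amotl2 in sphincter 2 measured 35.7, 43.3 and 16.9 CPM in constricted and 9.16, 12.5 and 7.41 CPM in untreated libraries, from 21 and 12 UMIs. The log2 fold change was 1.67 (SE 0.68, adjusted p = 0.667 by edgeR), without overlap as in 5.13% of genes tested. On untreated and constricted libraries alone Amotl2 did not pass the filter on low counts in sphincter 2, so nothing is read from it. Cyr61 was lower in constricted iris PE, with 7.23, 2.46 and 12 CPM against 59.3, 25.7 and 15.5 CPM in untreated libraries, without overlap as in 5.13% of genes tested. Its log2 fold change was −1.87 (SE 0.47), with an adjusted p of 0.807 by edgeR. That value moved to 0.00358 when no filter on low counts was used. In stroma 2, the direction of Cyr61 depended on untreated 1, with a log2 fold change of −0.64 with it and 1.39 without it, and Ctgf went from 0.29 to 1.21.

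The surroundings of the 6 genes were followed in 6 lists, tested for dilation by edgeR in dilator muscle, where 7.2% of all genes rose and 6.14% fell, and in stroma 2, where 1.35% rose. The lists were chosen with earlier results of these data known, so their counts and adjusted p are a description. Of 18 other YAP and TAZ targets tested in dilator muscle, 5 rose, 2 fell and 11 did not pass, with a median log2 fold change of −0.13 against 0.02 over all genes. F3, the tissue factor of blood clotting, rose from 6.47 ± 1.97 CPM (n = 3) to 45.0 ± 12.3 CPM (n = 2), a log2 fold change of 3.1 (SE 0.32, adjusted p = 8.21e-05). Fjx1 rose by 2.41 (SE 0.62) and Crim1, which tethers BMPs, by 1.15 (SE 0.18) on the log2 scale. Dock5, a guanine nucleotide exchange factor, fell by 0.95 (SE 0.13), and Ptpn14, a phosphatase that restrains YAP, fell by 0.64 (SE 0.15). Both directions thus occurred within the list, as among Cyr61, Ctgf and Amotl2. In stroma 2, Ccdc80 (log2 fold change 1.34, SE 0.22, adjusted p = 0.0102) and Crim1 (1.02, SE 0.19, adjusted p = 0.0205) were the 2 of 14 that rose, none fell, and the median was 0.33. In dilator muscle the 5 became 2 without untreated 3 and 3 without untreated 2, dilated 1 or dilated 2, and the 2 became 1 without untreated 2, untreated 3, dilated 2 or the top 5% of nuclei by UMIs.

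Of the targets of SRF and MRTF, 14 of 24 rose in dilator muscle and none fell, with a median log2 fold change of 0.87. Tagln2 rose from 13.2 ± 1.76 to 84.2 ± 32.6 CPM (log2 fold change 2.87, SE 0.31, adjusted p = 1.00e-04), Vim, the intermediate filament vimentin, from 51.8 ± 4.07 to 227 ± 24.4 CPM (2.34, SE 0.18), Tpm4, a tropomyosin, by 1.97 (SE 0.31) and Tagln, an actin-binding protein of smooth muscle, by 1.83 (SE 0.35). The count fell to 8 without dilated 2 and to 9 without untreated 2 or untreated 3, and 1 target was lower without dilated 2 or with the series of library numbers as a block. In stroma 2, 2 of 24 passed, Lmod1, a leiomodin that nucleates actin filaments (1.89, SE 0.33, adjusted p = 0.0140), and the actin crosslinker Flna (1.18, SE 0.22, adjusted p = 0.0211), with a median of 0.74. That count was 12 without untreated 1 and 0 without untreated 2 or untreated 3.

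Of the regulators of both pathways, 2 of 20 rose and 1 fell in dilator muscle, where 7.2% of all genes rose and 6.14% fell. Their median log2 fold change was 0.03. Wwtr1, which codes for TAZ, rose from 113 ± 10.9 to 209 ± 48.0 CPM (log2 fold change 1.05, SE 0.16, adjusted p = 0.000867), Frmd6, an upstream Hippo component, rose by 0.72 (SE 0.17), and Myocd, the SRF cofactor of smooth muscle, fell from 33.0 ± 5.66 to 14.7 ± 4.37 CPM (−0.99, SE 0.28, adjusted p = 0.0330). Myocd did not pass without untreated 1, 2 or 3, dilated 1 or the top 5% of nuclei by UMIs, and 1 of the 2 higher genes was lost without untreated 2 or dilated 2. In stroma 2, 1 of 21 rose, the TEAD cofactor Vgll3 (2.04, SE 0.37, adjusted p = 0.0195). Its level was 15.4 and 19.3 CPM in dilated and 6.04, 4.07 and 3.68 CPM in untreated libraries. Constricted libraries were as high as the dilated ones, at 12.3, 16.1 and 22.3 CPM, though edgeR did not call the gene there. Of the ligands, receptors and partners, the integrin chains Itga5 (1.48, SE 0.18) and Itgb1 (1.41, SE 0.22), which together form the fibronectin receptor, rose in dilator muscle (2 of 13 tested), and Cd47, a receptor of thrombospondin 1, rose in stroma 2 from 61.3 ± 5.87 to 108 ± 14.1 CPM (0.84, SE 0.18, adjusted p = 0.0374; 1 of 12 tested). The Cd47 call was lost without untreated 1, 2 or 3, dilated 2 or constricted 2. With the conditions compared alone the Cd47 call was lost too. The ligand of Fn14 was not analysed here.

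Relatives of the 6 genes behaved unlike one another. Lgals1 (log2 fold change 1.34, SE 0.25) and Tnfrsf1a, a TNF receptor (1.23, SE 0.25), rose in dilator muscle, while Lgals9 (−1.43, SE 0.33) and Tnfrsf19 (−1.13, SE 0.17) fell, 2 and 2 of 12 tested. In stroma 2, Thbs2, the gene closest to Thbs1, rose from 12 ± 0.442 to 27.9 ± 0.990 CPM (1.24, SE 0.27, adjusted p = 0.0374) and Tnfrsf11b, which codes for osteoprotegerin, from 1.54 ± 1.33 to 24.5 ± 16.4 CPM (4.32, SE 0.74, adjusted p = 0.0140), 2 of 14 tested. In stroma 2 the counts of the relatives, of the YAP targets and of the regulators were 0 without untreated 2 or untreated 3. Those of the relatives and the YAP targets were also 0 without dilated 1, and DESeq2 called 0 relatives there. In dilator muscle 1 relative was higher without dilated 2, and 1 was lower without untreated 3 or dilated 1.

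Immediate early genes had the highest median of the 6 lists in dilator muscle, at 4.6, with 9 of 10 tested that rose, and Egr1 (5.65, SE 0.60), Btg2 (5.5, SE 0.67), Fos (5.47, SE 0.96) and Atf3 (4.80, SE 0.82) in front. The authors had already reported Egr1, Btg2 and Junb as raised in dilated dilator muscle, so this count is no independent result. In stroma 2, 2 of 9 rose, Nr4a1 (4.04, SE 0.53, adjusted p = 0.00379) and Btg2 (1.58, SE 0.36, adjusted p = 0.0498), with a median of 1.16 and summed levels of 257 and 633 CPM against 144 to 227 CPM. That count of 2 was 0 without untreated 3, and 1 without untreated 2, constricted 2, the shared barcodes or the top 5% of nuclei by UMIs. With the conditions compared alone it was also 1, and it moved when either dilated library was left out, which leaves 1 dilated library. It was 5 with the replicate block, 6 with the series block, 3 with DESeq2 or without untreated 1, and 9 with no filter on low counts. With constriction edgeR called none of the 97 list genes tested in dilator muscle and none of the 94 in stroma 2, and DESeq2 called 2 and 1 of them. An unadjusted edgeR p below 0.05 was found for 16 of the 97 and 12 of the 94. These were larger shares than the 4.09% and 5.29% of all genes. The lists were chosen with earlier results known, so nothing is read from these shares.

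**Figure D5:**
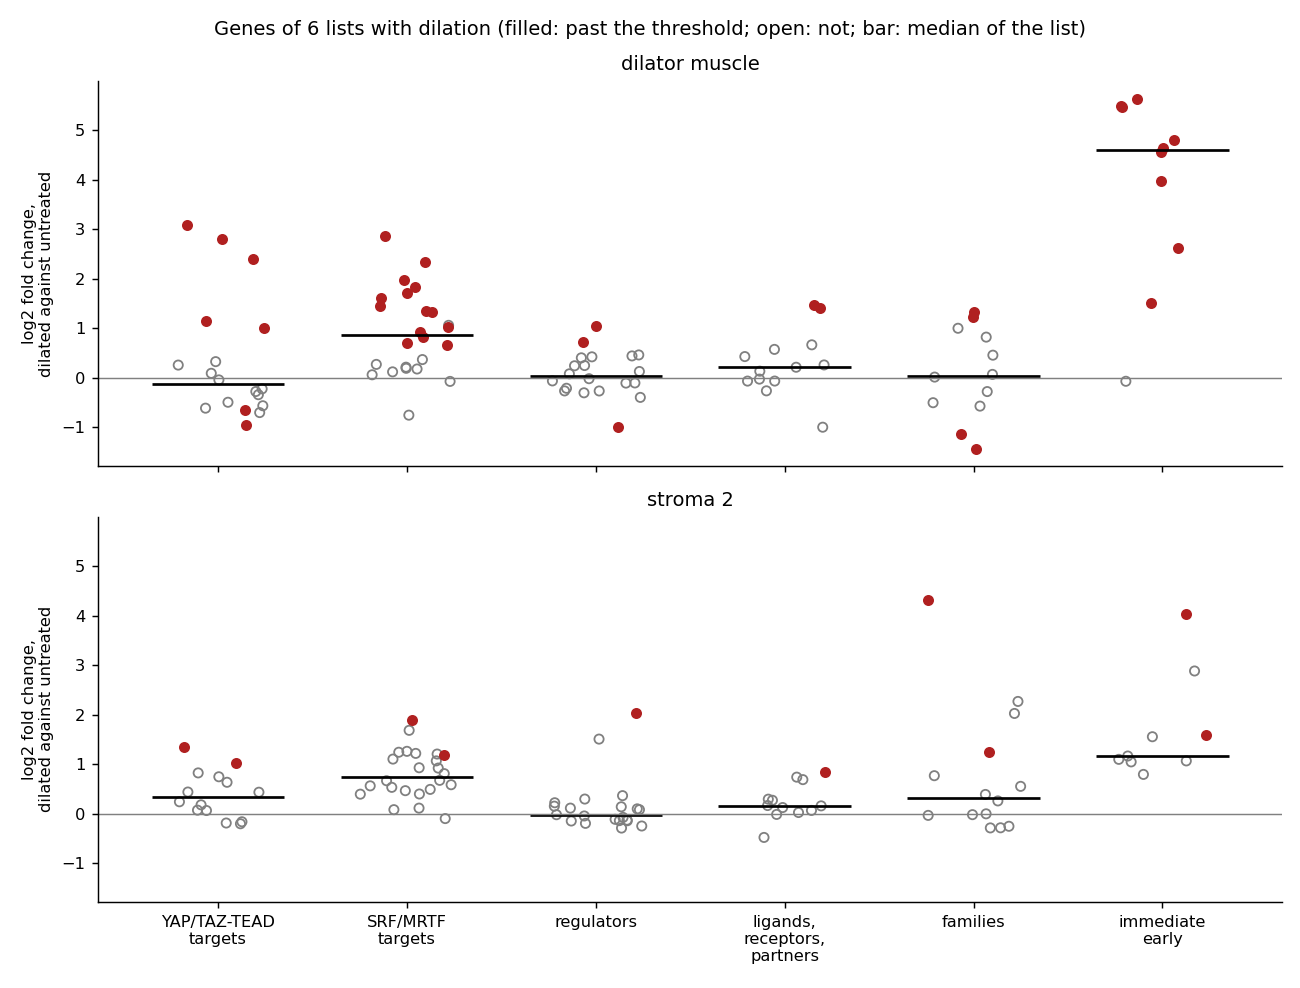
Log2 fold changes of the genes of each list, dilated against untreated, in dilator muscle and stroma 2; each point is 1 gene, filled points passed the threshold and bars are list medians. In dilator muscle the genes past the threshold lie above 0 among SRF and MRTF targets (14 of 24) and immediate early genes (9 of 10), and on both sides among YAP and TAZ targets (5 higher, 2 lower of 18).

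Of the markers of other cell types tested in stroma 2, only endothelial ones passed the threshold with dilation. Of the 5 endothelial markers, 4 were tested and 2 rose, with a summed level of 632 and 811 CPM in dilated against 195 to 256 CPM in untreated libraries. Cldn5, a tight junction claudin, measured 373 and 631 CPM against 99.1, 105 and 132 CPM, and Erg 58.5 and 23.4 CPM against 6.04, 7.51 and 4.25 CPM. Flt1 measured 172 and 126 CPM against 104, 86.9 and 43.6 CPM, also without overlap. Cdh5 measured 1.62 and 0 CPM against 1.21, 0.313 and 0.283 CPM, and Pecam1 measured 26.7 and 30.4 CPM against 45.9, 19.7 and 14.4 CPM. Endothelial nuclei, of which there were only 49 in dilated 1 and 24 in dilated 2, held 1 UMI of Thbs1 in all. In dilator muscle the sum of its own 6 markers was 3668 and 3589 CPM in dilated against 5665 to 6569 CPM in untreated libraries. Of the 8 leukocyte markers 5 were tested there, and only Cd68, which is lysosomal, rose, by 3.21 (SE 0.32). The other 4 did not pass, and the median of the 5 was −0.18. Cd68 measured 20.7 and 25.8 CPM in dilated against 4.36, 2.96 and 2.06 CPM in untreated libraries. The summed level of the 8 leukocyte markers, Cd68 included, was 67.3 and 57.9 CPM against 38.7 to 58.0 CPM. Their part in the results was not tested.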

How the data were processed

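Levels of RNA were measured in nuclei by droplet single nucleus RNA sequencing. The authors aligned reads to exons and introns of mm10 with Cell Ranger 3.1.0 and deposited raw UMI counts for each gene in each nucleus, each nucleus's percent of mitochondrial transcripts, and cell types from Seurat clusters. In every library the summed counts differed from the deposited total for a minority of nuclei. They were equal in 1225 of 1479 nuclei of untreated 1 and in 6059 of 6494 of untreated 3. The reason was not tested. The authors had removed nuclei above a set limit of mitochondrial transcripts, and nuclei below a lower or above an upper limit of gene number. No doublet caller was run here.

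The counts of all nuclei of a cell type in a library were added up. edgeR 4.0.16 in R 4.3.3 fitted all 8 libraries per cell type (TMM, filterByExpr, quasi-likelihood test, two-sided, Benjamini-Hochberg over all genes tested). A gene was called above an absolute log2 fold change of 0.6 and below an adjusted p of 0.05. An SE is the absolute log2 fold change over the square root of F. The test was run on simulated counts with the same dispersion for every gene and no series effect or outlying library. Its error rate on these data was thus not measured. DESeq2 1.42.0, other normalization, filters, blocks, nuclei and left-out libraries were alternatives. For likeness, log2(CPM + 10) was used for genes reaching 20 CPM. The other steps ran in Python 3.11.15 (numpy 2.4.6, scipy 1.17.1, pandas 2.3.3, matplotlib 3.10.9). GENCODE matched 22498 of 22873 genes by name.

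The members and lists were chosen with earlier results of these data known. Named were the listed genes in every cell type and, per list, cell type and direction, up to 4 called genes with the largest change and the same sign for every pair of libraries. Replicate numbers were not used to pair libraries in the main fit.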

Additional observations from a re-analysis of the deposited data

How the results depend on the processing

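Dilation values kept their direction under all alternatives run for the 6 genes in dilator muscle and stroma 2 and the 4 tested in stroma 1, and Tnfrsf12a, Lgals3, Ctgf and Amotl2 kept theirs in iris PE. Thbs1 in stroma 2 stayed between 4.13 and 4.74 and Tnfrsf12a in dilator muscle between 5.12 and 5.89 on the log2 scale. Tnfrsf12a in stroma 1, 4.78, was 6.09 with the replicate block. Leaving out the nuclei with shared barcodes was an alternative chosen after seeing the data.

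Among counts of all genes, leaving out each library in turn gave 624 to 1240 genes higher and 462 to 1033 lower with dilation in dilator muscle (1109 and 945 with all libraries), and 20 to 211 higher and 2 to 69 lower in stroma 2 (172 and 49). In dilator muscle the counts were 624 and 462 without dilated 2, 643 and 500 without untreated 2, and 679 and 524 without untreated 3, and 544 were lower without dilated 1. In stroma 2 they were 107 and 30 without dilated 1, 33 and 5 without untreated 2, and 20 and 2 without untreated 3, and 10 were lower without dilated 2. The series of library numbers as a block gave 1480 lower in dilator muscle and 399 higher and 248 lower in stroma 2. No filter gave 503 and 186 in stroma 2, DESeq2 82 lower there and the replicate block 90 lower. With constriction, the 1 gene called in dilator muscle became 13 with DESeq2, 9 with no filter, 6 with the replicate block, 3 with the series block, 4 without the top 5% of nuclei by UMIs, 2 with the conditions compared alone, 3 without shared barcodes, and 0 to 7 when a library was left out. The 2 in stroma 2 became 24, 102, 17, 22 and 4 under the first 5 of these, 5 with the conditions compared alone, and 0 to 5 when a library was left out. The 1 in iris PE became 5, 12, 6, 3 and 2, 2 with a filter of 10 counts in 2 libraries, and 1 to 2 when a library was left out. The causes were not tested, except that no filter tests more genes.

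With constriction, Tnfrsf12a in dilator muscle passed the threshold with DESeq2 (1.88, adjusted p = 0.0246) and with the replicate block (2.00, adjusted p = 0.0407), and Cyr61 in iris PE with no filter (−1.87, adjusted p = 0.00358). Same-numbered libraries deviated from their group means with r of −0.033 to −0.0061 in the 4 pairs that crossed series of library numbers and 0.13 to 0.45 in the 10 within one. All 4 crossing pairs hold constricted 2, and for replicate 1 number and series coincide. Whether the numbers pair libraries could thus not be decided, and the replicate block is an alternative only. Some values reversed. For constriction these were Amotl2 in CB (0.21 with the series block), Ctgf in CB (0.17 without shared barcodes), Lgals3 in CBE (−0.022 with the series block), Amotl2 in CBE (0.015 with DESeq2, 0.011 with the replicate block, 0.31 with the series block, 0.026 without the top 5% of nuclei) and Ctgf in CBE (0.044 with the replicate block, 0.067 without the top 5% of nuclei). For dilation it was Ctgf in CBE (0.27 with the replicate block, 0.085 with the series block). When each library was left out, the constriction values that changed sign ran from −1.08 to 0.64 for Ctgf in dilator muscle, −0.49 to 0.19 for Ctgf in iris PE, −2.73 to 2.51 for Tnfrsf12a in stroma 1, −0.28 to 0.83 for Lgals3, −1.46 to 1.39 for Cyr61 and −0.11 to 1.21 for Ctgf in stroma 2, −0.49 to 0.12 for Amotl2 and −0.91 to 0.38 for Ctgf in CB, and −0.014 to 0.86 for Lgals3, −0.21 to 0.19 for Amotl2 and −0.47 to 0.39 for Ctgf in CBE. For dilation they ran from −1.27 to 0.21 for Amotl2 in sphincter 2, −0.23 to 0.67 for Cyr61 in iris PE and −0.49 to 0.47 for Ctgf in CBE.

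Comparisons rest on 2 or 3 libraries per condition. In the rarer cell types the genes had few UMIs and were not tested. Thinning moved 139 of 180 shares of nuclei beyond their intervals, as fewer UMIs per nucleus give lower shares.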
